A study of Rhodotorula toruloides with 2 samples.

Results

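The cell wall, chitin and glycosylation genes are the 35 of 1402 listed genes of the red yeast Rhodotorula toruloides whose KEGG or BLAST description names chitin, glucan, mannan or mannosyl groups, a glycoside hydrolase or glycosyltransferase, glycogen, trehalose, a glycosylphosphatidylinositol (GPI) anchor or the cell wall. The words matched 36 genes, and 1 of them was left out because its best hit is a proteophosphoglycan. A gene is in the authors' deposited table only if it differed at least 2-fold between the libraries, so every member differs by that choice, and wall or glycosylation genes under that difference are not analysed here. No listed gene matched chitin synthase, glucan synthase or trehalose, and 1 matched glycogen.

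Wild-type cells of strain AS 2.1389 were grown in a chemostat, a continuous culture of fixed volume, on either limiting or replete phosphate (Pi). Total RNA was sequenced, giving 1 Pi-limited-labelled library and 1 Pi-replete-labelled library, with totals of 5892590 and 5641377 counts. With no replicates, no difference has a replicate check and no test was made. Each fold below compares counts divided by the library total, and its exact 95% interval covers counting error only. RHTO_01284, a symporter that imports Pi with sodium, had 22 counts in the Pi-limited-labelled library and 5797 in the Pi-replete-labelled library (275-fold lower, 182 to 440), whereas fungi are known to induce such transporters when Pi is short. The Pi transporter RHTO_06822 was 54.6-fold lower (38.3 to 80.6) and the alkaline phosphatase RHTO_03053 80.3-fold lower (42.1 to 176) in the Pi-limited-labelled library. All 3 go against the labels. The deposited columns name the Pi-limited-labelled library control_F3A and the Pi-replete-labelled library P0A. Whether the labels of the libraries were exchanged was not tested, and if they were, every direction given here would turn. Each direction below is that of the label a library carries.

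The fungal wall is built from chitin, beta-glucans and heavily mannosylated proteins, many of them held by a GPI anchor. Chitin deacetylase turns chitin into chitosan, which is part of the wall in the basidiomycete yeast Cryptococcus, while chitinases and glucanases loosen the polymers as cells grow and separate. Asparagine-linked sugar chains (N-glycans) are assembled on the lipid dolichol at the endoplasmic reticulum, moved to the nascent protein by oligosaccharyltransferase, and then trimmed by glucosidases as the protein folds.

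Members were found in both directions. All 5 listed genes of N-glycan assembly and transfer were higher in the Pi-limited-labelled library, by 2.23- to 3.80-fold, and so were all 3 alpha-glucosidases, by 3.31- to 20.3-fold. Of all listed genes, 58.3% were higher there. Chitin deacetylase was 98.2-fold lower in the Pi-limited-labelled library, the member with the largest fold. The trimming enzyme glucosidase I, the glycogen debranching enzyme and invertase were also lower there, by 2.30-, 3.57- and 3.09-fold. The functional groups were formed by hand from the descriptions, after the values were seen, and cover all 35 members.

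Of the 35 members, 21 were higher and 14 were lower in the Pi-limited-labelled library. That is 60.0% higher, where 58.3% of all listed genes were higher and 41.7% lower, so the balance of the members lay near that of the whole table. At 4-fold or more, 5 members (14.3%) were higher and 7 (20.0%) were lower, against a background of 14.1% and 19.6% of all listed genes. Of these 5, the chitinase RHTO_05054, has 0 counts in the Pi-replete-labelled library and was counted at the floor of 3 counts, and without it 4 were higher. The members had a median log2 ratio of 1.30 (Pi-limited-labelled over Pi-replete-labelled), and all listed genes one of 1.10. Centring the ratios on that of all listed genes left 5 members higher and 14 lower at 2-fold or more (26.3% higher), where all listed genes gave 23.8%. Since genes under 2-fold are not in the table, such a shift can only take genes away from the higher side. It turned the sign of 2 members with ratios near the 2-fold limit, RHTO_01058 and RHTO_02960, and of none of the others.

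**Figure D1:**
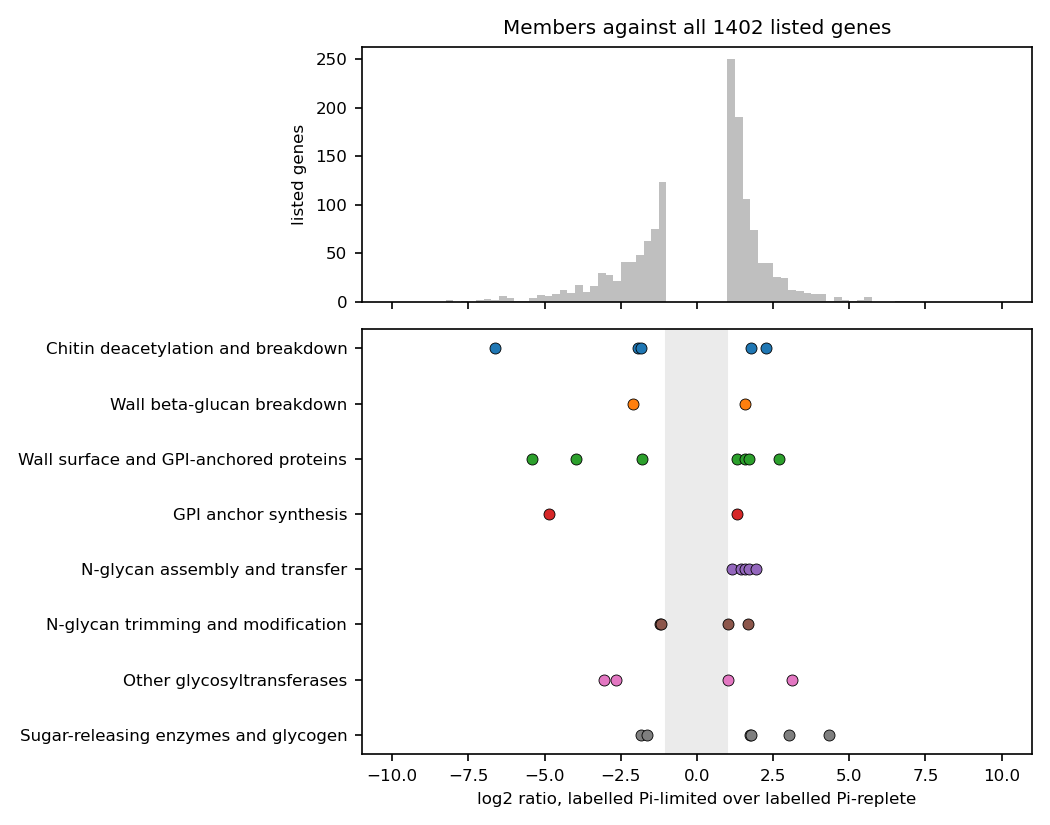
The upper panel counts all 1402 listed genes by log2 ratio (labelled Pi-limited over labelled Pi-replete), and the lower panel has 1 point per member in its functional group, with the range under 2-fold shaded. The 5 N-glycan assembly genes lie between 1.16 and 1.93, while the chitin group runs from -6.62 to 2.26.

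The members together took 9859 counts, 0.167% of the Pi-limited-labelled library (exact 95% interval 0.164 to 0.171), and 13171 counts, 0.233% of the Pi-replete-labelled library (0.230 to 0.237). Without chitin deacetylase the shares were 0.167% and 0.200%. A few genes made up most of each sum. STT3, a beta-1,2-xylosyltransferase, glucosidase I and invertase gave 57.6% of the members' counts in the Pi-limited-labelled library, and invertase, glucosidase I, the glycogen debranching enzyme and chitin deacetylase gave 74.7% in the Pi-replete-labelled library. In RPKM, the authors' counts scaled by gene length and library total, the xylosyltransferase had the highest level in the Pi-limited-labelled library at 133 RPKM, and invertase in the Pi-replete-labelled library at 249 RPKM. The median member had 14.1 RPKM in the Pi-limited-labelled library and 6.77 RPKM in the Pi-replete-labelled library, below the 21.3 and 17.3 RPKM of all listed genes.

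**Figure D2:**
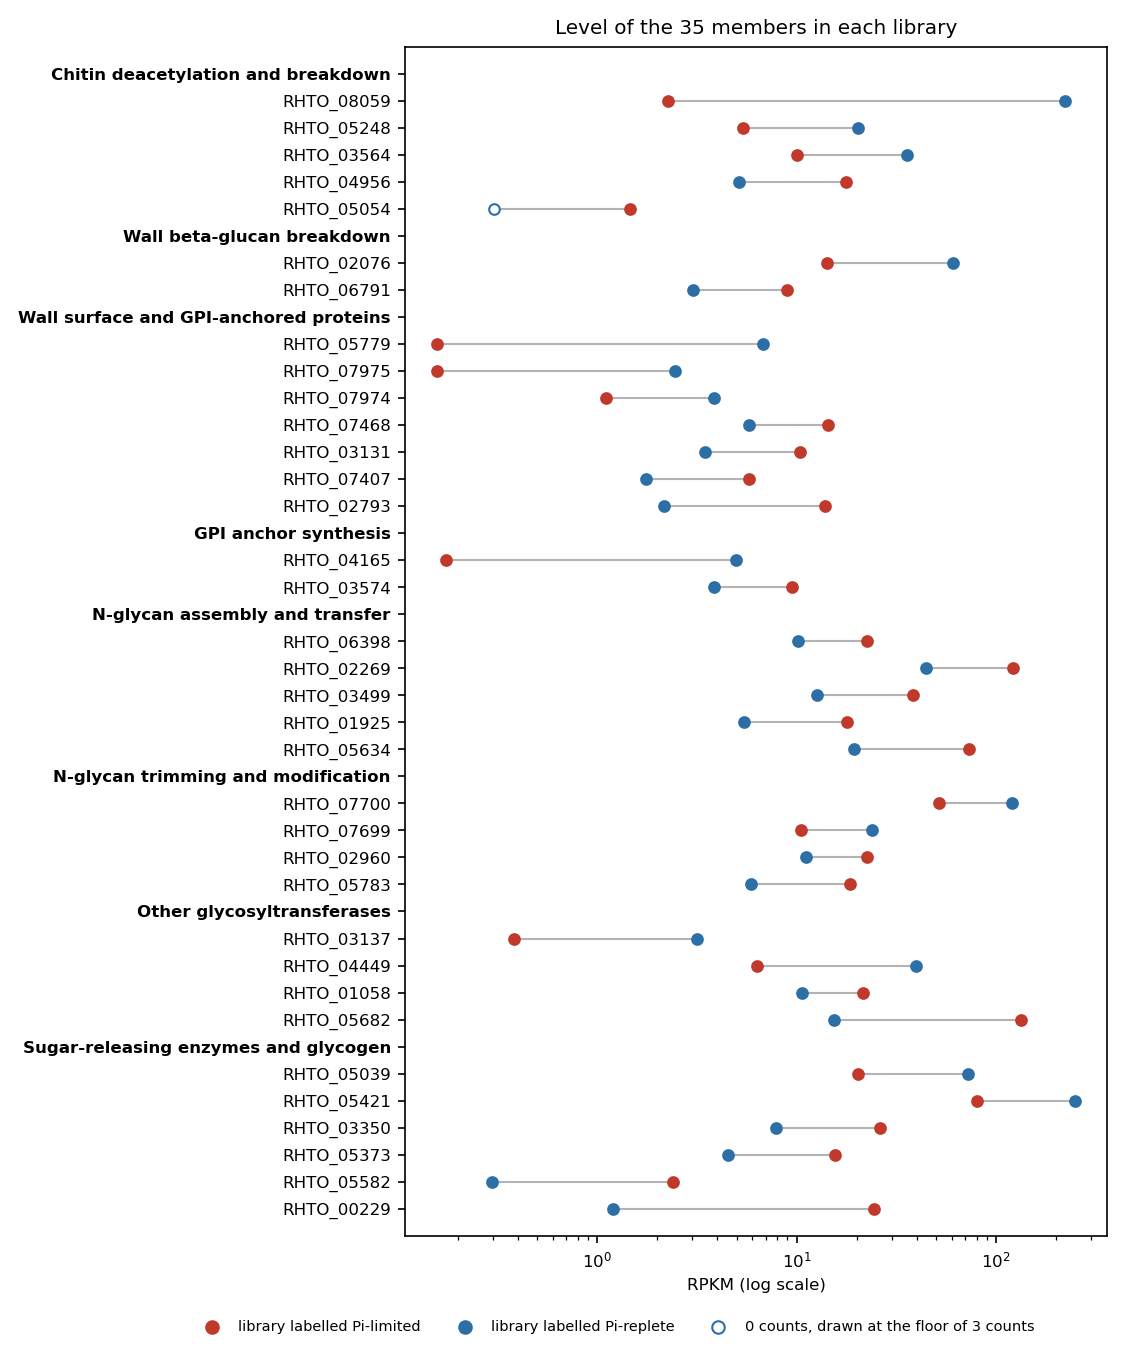
Level of each member in RPKM on a log axis, with red for the Pi-limited-labelled library, blue for the Pi-replete-labelled library and a grey line joining both; the open point is a gene with 0 counts, drawn at the floor of 3 counts. Chitin deacetylase (RHTO_08059) spans 2.27 to 223 RPKM, and the N-glycan assembly genes all have the red point on the right.

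Of the 5 genes that act on chitin or carry a related deacetylase description, 2 were higher and 3 were lower in the Pi-limited-labelled library. Chitin deacetylase (RHTO_08059) had 20 counts (2.27 RPKM) in the Pi-limited-labelled library, against 1880 counts (223 RPKM) in the Pi-replete-labelled library. It was 98.2-fold lower in the Pi-limited-labelled library (95% interval 63.4 to 161). In the Pi-replete-labelled library it was the member with the highest level per length after invertase, and in the Pi-limited-labelled library it was below the median member. A gene described as a glycoside hydrolase or deacetylase, with no stated substrate (RHTO_05248), had 29 counts in the Pi-limited-labelled library and 105 in the Pi-replete-labelled library, 3.78-fold lower (2.49 to 5.92).

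The 3 chitinases did not share a direction. A chitinase of glycoside hydrolase family 18 (RHTO_03564) had 75 counts in the Pi-limited-labelled library and 254 in the Pi-replete-labelled library, 3.54-fold lower (2.72 to 4.64). An endochitinase (RHTO_04956) had 132 counts in the Pi-limited-labelled library and 37 in the Pi-replete-labelled library, 3.42-fold higher (2.36 to 5.06). The other chitinase (RHTO_05054) had 15 counts in the Pi-limited-labelled library and 0 in the Pi-replete-labelled library, 4.79-fold higher if the floor of 3 counts is put in place of the 0. The exact lower limit of that ratio was 3.43-fold. RHTO_03564 and RHTO_05054 have the same BLAST best hit, a family 18 protein of the rust fungus Melampsora larici-populina, yet differ in direction. By level per length the chitinase that was lower was the most abundant of the 3 in the Pi-replete-labelled library at 35.6 RPKM, and the endochitinase was the most abundant in the Pi-limited-labelled library at 17.7 RPKM.

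Both listed enzymes that cut wall beta-glucan were hydrolases, and they had opposite directions. The exo-type enzyme glucan 1,3-beta-glucosidase (RHTO_02076), which removes glucose from chain ends, had 105 counts (14.1 RPKM) in the Pi-limited-labelled library and 432 counts (60.8 RPKM) in the Pi-replete-labelled library. It was 4.30-fold lower in the Pi-limited-labelled library (3.46 to 5.37). An endo-1,3(4)-beta-glucanase (RHTO_06791), which cuts within chains, had 65 counts (8.92 RPKM) in the Pi-limited-labelled library and 21 counts (3.01 RPKM) in the Pi-replete-labelled library, 2.96-fold higher (1.79 to 5.10). The exo-type enzyme had more RPKM than the endo-type enzyme in either library.

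Genes described as proteins of the wall surface formed the largest group. It holds 6 genes whose best hit is a cell wall surface anchor family protein and 1 described as GPI-anchored with a CFEM domain. That domain is a cysteine-rich domain of fungal surface proteins. None of these genes has a KEGG description, so their place at the wall rests on the BLAST description alone. The 6 surface anchor genes divided evenly. RHTO_07468, the longest of all members at 5979 bases, had 504 counts in the Pi-limited-labelled library and 195 in the Pi-replete-labelled library, 2.47-fold higher (2.09 to 2.93). RHTO_03131 had 168 counts in the Pi-limited-labelled library and 54 in the Pi-replete-labelled library, 2.98-fold higher (2.18 to 4.13). RHTO_07407 had 41 counts in the Pi-limited-labelled library and 12 in the Pi-replete-labelled library, 3.27-fold higher (1.69 to 6.84).

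The 3 surface anchor genes that were lower in the Pi-limited-labelled library had few counts in either library. RHTO_05779 had 1 count in the Pi-limited-labelled library and 41 in the Pi-replete-labelled library, a ratio of 42.8-fold lower with an interval from 7.27 to 1732. The adjacent genes RHTO_07974 and RHTO_07975 share a best hit. RHTO_07974 had 9 counts in the Pi-limited-labelled library and 30 in the Pi-replete-labelled library, 3.48-fold lower (1.61 to 8.34), and RHTO_07975 had 1 and 15, 15.7-fold lower (2.41 to 660). None of these 3 exceeded 6.77 RPKM or 41 counts. With so few counts, the size of their difference is known only within wide limits. RHTO_07407, which was higher in the Pi-limited-labelled library, also had no more than 41 counts. The CFEM protein (RHTO_02793) had 47 counts (13.8 RPKM) in the Pi-limited-labelled library and 7 counts (2.15 RPKM) in the Pi-replete-labelled library, 6.43-fold higher (2.89 to 16.9).

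GPI anchors are built stepwise in the endoplasmic reticulum membrane, and the 2 listed enzymes of that pathway had opposite directions. Phosphatidylinositol glycan class A (RHTO_04165), the catalytic subunit of the first step, had 2 counts (0.174 RPKM) in the Pi-limited-labelled library and 55 counts (4.99 RPKM) in the Pi-replete-labelled library, a ratio of 28.7-fold lower (7.58 to 243). The ethanolamine phosphotransferase GPI7 (RHTO_03574), which adds a phosphate-bearing side group to the anchor, had 144 counts (9.48 RPKM) in the Pi-limited-labelled library and 56 counts (3.85 RPKM) in the Pi-replete-labelled library, 2.46-fold higher (1.80 to 3.41).

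The 5 genes of N-glycan assembly and transfer were all higher in the Pi-limited-labelled library, where 58.3% of all listed genes were higher. Since this group was formed after the values were seen, its shared direction depends in part on that choice. The early step is represented by the beta-1,4-N-acetylglucosaminyltransferase (RHTO_03499), which adds the second sugar to dolichol diphosphate. It had 167 counts (38.2 RPKM) in the Pi-limited-labelled library and 53 counts (12.7 RPKM) in the Pi-replete-labelled library, 3.02-fold higher (2.20 to 4.19). Mannose is added next, and 2 genes are described as alpha-1,2-mannosyltransferase. RHTO_05634 had 520 counts (73.5 RPKM) in the Pi-limited-labelled library and 131 counts (19.4 RPKM) in the Pi-replete-labelled library, 3.80-fold higher (3.13 to 4.64). RHTO_01925 had 68 counts (17.8 RPKM) in the Pi-limited-labelled library and 20 counts (5.47 RPKM) in the Pi-replete-labelled library, 3.26-fold higher (1.95 to 5.66), and its description also names cholestenol delta-isomerase, a sterol enzyme, so its place in this pathway is less sure.

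The last glucose of the precursor is added by an alpha-1,2-glucosyltransferase. That gene (RHTO_06398) had 203 counts (22.6 RPKM) in the Pi-limited-labelled library and 87 counts (10.1 RPKM) in the Pi-replete-labelled library, 2.23-fold higher (1.73 to 2.91). The finished chain is moved to protein by oligosaccharyltransferase, whose catalytic subunit is STT3. STT3 (RHTO_02269) had 1714 counts (122 RPKM) in the Pi-limited-labelled library and 601 counts (44.6 RPKM) in the Pi-replete-labelled library, 2.73-fold higher (2.49 to 3.00). It was the most abundant gene of this group in both libraries, and the others followed in the same order of RPKM. With ratios centred on the median of the listed genes, all 5 kept a positive log2 ratio but none stayed at 2-fold. The summed counts of the group were 2672 in the Pi-limited-labelled library and 892 in the Pi-replete-labelled library, 2.87-fold higher (2.66 to 3.10).

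Enzymes that act on the N-glycan after transfer went both ways, 2 higher and 2 lower. Glucosidase I (mannosyl-oligosaccharide glucosidase, RHTO_07700), which removes the outermost glucose and so begins trimming, had 1164 counts (52.0 RPKM) in the Pi-limited-labelled library and 2564 counts (120 RPKM) in the Pi-replete-labelled library. It was 2.30-fold lower in the Pi-limited-labelled library (2.15 to 2.47). The adjacent shorter gene RHTO_07699, with the same best hit of glycoside hydrolase family 63, had 68 counts in the Pi-limited-labelled library and 148 in the Pi-replete-labelled library, 2.27-fold lower (1.69 to 3.08). The intervals of this pair overlap, and whether both belong to 1 gene was not tested. STT3 and glucosidase I, which act one after the other on the same glycan, thus had opposite directions, and their order by RPKM differed between the libraries, with STT3 above glucosidase I in the Pi-limited-labelled library and below it in the Pi-replete-labelled library.

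A mannosyl-glycoprotein endo-beta-N-acetylglucosaminidase (RHTO_05783), which cuts within N-glycans of proteins, had 238 counts in the Pi-limited-labelled library and 72 in the Pi-replete-labelled library, 3.16-fold higher (2.42 to 4.18). A glycosyltransferase of family 17 (RHTO_02960), described by KEGG with an enzyme that in animals adds a bisecting sugar, had 151 counts in the Pi-limited-labelled library and 71 in the Pi-replete-labelled library, 2.04-fold higher (1.53 to 2.74). The log2 ratio of RHTO_02960 was 1.03, so near the limit of the table that it became -0.073 after median centring.

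Of the 4 other glycosyltransferases, 2 carry descriptions known from capsule synthesis in Cryptococcus, a related basidiomycete, and they had opposite directions. The beta-1,2-xylosyltransferase of family 90 (RHTO_05682) had 1641 counts (133 RPKM) in the Pi-limited-labelled library and 182 counts (15.4 RPKM) in the Pi-replete-labelled library, 8.63-fold higher (7.40 to 10.1). It was the member with the highest RPKM in the Pi-limited-labelled library. The alpha-1,3-mannosyltransferase (RHTO_04449) had 71 counts (6.31 RPKM) in the Pi-limited-labelled library and 430 counts (39.9 RPKM) in the Pi-replete-labelled library, 6.33-fold lower (4.91 to 8.25). BLAST describes that gene as delta-aminolevulinic acid dehydratase, an enzyme of heme synthesis. The next gene in order, RHTO_04450, has the same best hit and the KEGG description of that heme enzyme. It had 752 counts in the Pi-limited-labelled library and 353 in the Pi-replete-labelled library, 2.04-fold higher (1.79 to 2.32), so these neighbours had opposite directions, although the log2 ratio of RHTO_04450 became -0.070 after median centring.

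A glycosyltransferase-like gene with no KEGG description (RHTO_03137) had 4 counts in the Pi-limited-labelled library and 32 in the Pi-replete-labelled library, 8.36-fold lower (2.96 to 32.5). A gene described as glycosyltransferase-like protein LARGE (RHTO_01058), whose animal counterpart glycosylates dystroglycan, had 218 counts in the Pi-limited-labelled library and 104 in the Pi-replete-labelled library, 2.01-fold higher (1.58 to 2.56). It was the member nearest to the 2-fold limit, and its log2 ratio became -0.094 after median centring.

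**Figure D3:**
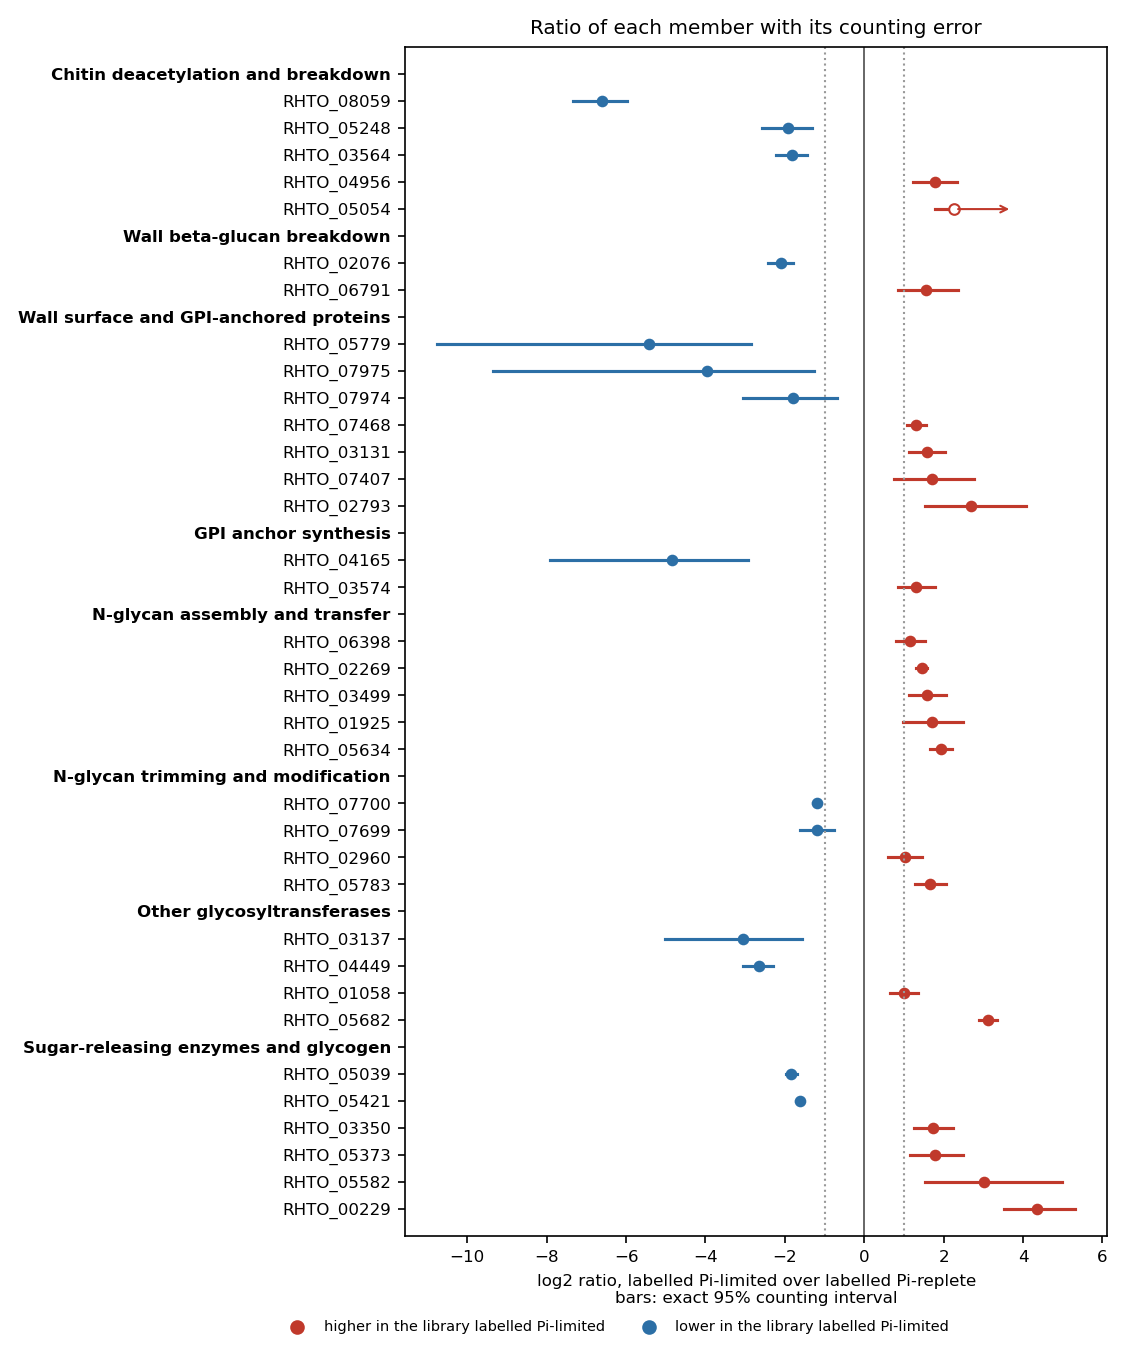
Log2 ratio of each member (labelled Pi-limited over labelled Pi-replete) with its exact 95% counting interval as a bar, red where higher and blue where lower in the Pi-limited-labelled library; dotted lines mark 2-fold, and the open point with an arrow is a gene at 0 set at the floor of 3 counts, with its bar running down to the exact lower limit. The interval lies beyond 2-fold for 26 of the 35 members, 14 higher and 12 lower, and is widest for RHTO_05779 and RHTO_07975, each with 1 count in the Pi-limited-labelled library. All listed genes were chosen at 2-fold or more, which favours such intervals, and their share over all listed genes was not computed.

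Of the 6 sugar-releasing and glycogen enzymes, 4 were higher and 2 were lower in the Pi-limited-labelled library. All 3 alpha-glucosidases, which free glucose from maltose-like sugars, were higher in the Pi-limited-labelled library, where 58.3% of all listed genes were higher. Of these 3, only RHTO_00229 stayed at least 2-fold higher after median centring. RHTO_00229, the only one with an alpha-glucosidase description from both KEGG and BLAST, had 254 counts (24.4 RPKM) in the Pi-limited-labelled library and 12 counts (1.20 RPKM) in the Pi-replete-labelled library, 20.3-fold higher (11.4 to 39.7). RHTO_05373 had 94 counts in the Pi-limited-labelled library and 26 in the Pi-replete-labelled library, 3.46-fold higher (2.22 to 5.57). RHTO_03350 had 159 counts in the Pi-limited-labelled library and 46 in the Pi-replete-labelled library, 3.31-fold higher (2.37 to 4.70). These 3 had 15.6 to 26.1 RPKM in the Pi-limited-labelled library and 1.20 to 7.88 RPKM in the Pi-replete-labelled library. RHTO_05373 and RHTO_03350 are shorter, at 1023 and 1035 bases against 1770 for RHTO_00229, and the best hits of both shorter genes are hypothetical proteins. A beta-glucosidase (RHTO_05582), which cleaves cellobiose-like sugars, had 34 counts in the Pi-limited-labelled library and 4 in the Pi-replete-labelled library, 8.14-fold higher (2.90 to 31.6).

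Invertase and glycogen debranching enzyme had the other direction. Invertase (beta-fructofuranosidase, RHTO_05421), which splits sucrose, had 1158 counts (80.6 RPKM) in the Pi-limited-labelled library and 3431 counts (249 RPKM) in the Pi-replete-labelled library, 3.09-fold lower (2.89 to 3.31). Glycogen debranching enzyme (RHTO_05039), which opens the branches of stored glycogen, had 575 counts (20.4 RPKM) in the Pi-limited-labelled library and 1963 counts (72.6 RPKM) in the Pi-replete-labelled library, 3.57-fold lower (3.25 to 3.92). These 2 genes had more counts in the Pi-replete-labelled library than the alpha-glucosidases had in either library. The summed counts of the 6 genes were 2274 in the Pi-limited-labelled library and 5482 in the Pi-replete-labelled library, 2.52-fold lower (2.40 to 2.65), although 4 of the 6 were higher.

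By the enzyme class in the KEGG description, whose words also served to choose the members, 12 members are glycosidases alone and 8 are transferases of sugars alone. The glycogen debranching enzyme and RHTO_01925 carry more than 1 class and are in neither number. Of the glycosidases 8 were higher and 4 were lower in the Pi-limited-labelled library, and of the sugar transferases 6 were higher and 2 were lower. Over the whole table these classes held 14 of 19 and 14 of 20 genes higher. Those 19 and 20 genes include the members, so they are no separate background. Of all listed genes, 58.3% were higher. The 2 largest folds in the lower direction came from neither class, since chitin deacetylase is an amidase and the surface anchor gene RHTO_05779 has no enzyme class.

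Other genes of the pathway were taken from 3 lists chosen by description. Of 4 genes matched to nucleotide sugar supply, 2 were higher and 2 were lower in the Pi-limited-labelled library. The BLAST best hit of RHTO_00953 is glucosamine 6-phosphate synthetase, the enzyme that opens the route to the chitin precursor. The gene has no KEGG description and the weakest BLAST match of the 4, so whether it encodes that enzyme is unsure. RHTO_00953 had 246 counts in the Pi-limited-labelled library and 36 in the Pi-replete-labelled library, 6.54-fold higher (4.60 to 9.56). Mannose-6-phosphate isomerase (RHTO_02558), which supplies mannose for glycans, had 9 counts in the Pi-limited-labelled library and 37 in the Pi-replete-labelled library, 4.29-fold lower (2.04 to 10.1), and is given although it falls under the 50 counts set for naming. A gene described as phosphomannomutase and as DnaJ chaperones (RHTO_02627) had 57 counts in the Pi-limited-labelled library and 158 in the Pi-replete-labelled library, 2.90-fold lower (2.13 to 3.99).

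UDP-glucose:glycoprotein glucosyltransferase (RHTO_00236), which puts glucose back on misfolded glycoproteins, had 613 counts in the Pi-limited-labelled library and 214 in the Pi-replete-labelled library, 2.74-fold higher (2.34 to 3.22). It matched the nucleotide sugar list by wording, and its BLAST best hit is a proteophosphoglycan. All 3 genes matched to glycoprotein folding and dolichol were higher. The protein disulfide isomerases, which form disulfide bonds in the endoplasmic reticulum, were RHTO_02270, with 185 counts in the Pi-limited-labelled library and 61 in the Pi-replete-labelled library, 2.90-fold higher (2.16 to 3.94), and RHTO_07180, with 609 and 226, 2.58-fold higher (2.21 to 3.02). The remaining gene, RHTO_01940, is described as a mitochondrial inner membrane protease and as a signal peptidase, and was 2.37-fold higher (1.66 to 3.45). The disulfide isomerases, the glucosyltransferase and STT3 were all 2.58- to 2.90-fold higher, with intervals that overlap. Of all listed genes 58.3% were higher, and after median centring the log2 ratios of these genes were only 0.27 to 0.44. Whether they change together was not tested.

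Several members lie beside another listed gene. By gene order in the RefSeq table of strain NP11 (assembly RHOziaDV1.0), 13 of the 35 members had a listed neighbour, in 11 pairs. Both genes had the same direction in 8 of these pairs (72.7%), where 193 of all 294 pairs of listed neighbours (65.6%) did. After median centring the numbers were 9 of 11 pairs (81.8%) and 179 of 294 (60.9%). Pairs that share a best hit were left in these numbers, so the shares do not compare separate genes alone. RHTO_07699 with RHTO_07700, RHTO_07974 with RHTO_07975, and RHTO_05373 with RHTO_05374 share both a best hit and a direction. RHTO_04449 and RHTO_04450 also share a best hit, and have the same direction only after centring. STT3 lies beside the disulfide isomerase RHTO_02270, and both were higher in the Pi-limited-labelled library. The alpha-glucosidase RHTO_00229 lies beside RHTO_00228, an alpha-glucoside permease that brings maltose-like sugars into the cell. The permease had 43 counts in the Pi-limited-labelled library and 12 in the Pi-replete-labelled library, 3.43-fold higher (1.78 to 7.15). The alpha-glucosidase RHTO_05373 lies beside RHTO_05374, which has the same best hit and had 66 counts in the Pi-limited-labelled library and 6 in the Pi-replete-labelled library, 10.5-fold higher (4.59 to 29.7). Whether RHTO_05373 and RHTO_05374 belong to a single gene was not tested. The endo-glucanase RHTO_06791 had a neighbour of the opposite direction, RHTO_06790, with 2 counts in the Pi-limited-labelled library and 46 in the Pi-replete-labelled library, a ratio of 24.0-fold lower (6.28 to 204). Whether reads of neighbours were shared was not tested, as no source used here states whether counting used strand.

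**Figure D4:**
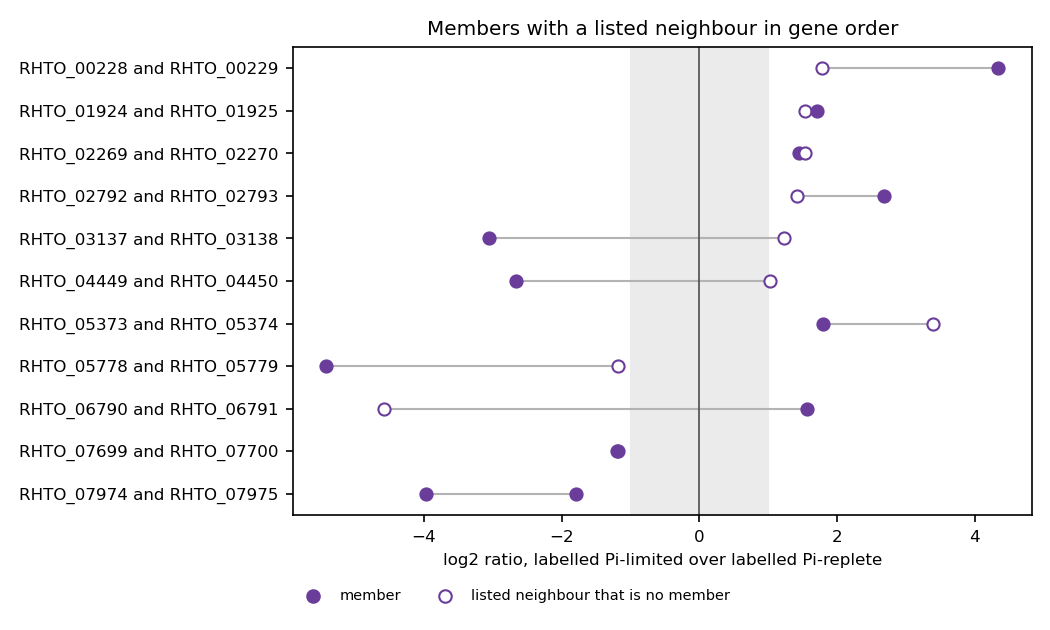
Log2 ratio (labelled Pi-limited over labelled Pi-replete) of the genes in each of the 11 neighbouring pairs that hold a member, with filled points for members and open points for other listed genes, and the range under 2-fold shaded. In 8 pairs both points lie on the same side of 0.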

How the data were processed

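The authors deposited 1 table of listed genes. Per the file headers, its columns are the raw count in each library, the RPKM (counts scaled by gene length and library total), a log2 ratio of RPKM, a p-value with its FDR (false discovery rate), lengths, and descriptions from KEGG and BLAST. The submitters' processing notes name Cufflinks and DESeq with no role. Aligner, genome build and strandedness were not given in the sources used here. In the authors' deposited table the largest FDR was 9.75e-04 and the smallest absolute log2 ratio 1.0003. The deposited log2 ratio is that of the Pi-replete-labelled library over the Pi-limited-labelled library, and was recomputed in the other direction.

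Library totals were recovered from the deposited counts, lengths and RPKM. Folds are ratios of counts per total, with exact 95% intervals from the conditional binomial (Clopper-Pearson; scipy 1.17.1, Python 3.11.15), tested on simulated data. For a gene at 0 the floor was 3 counts in that library, equal to 0.509 CPM in the Pi-limited-labelled library and 0.532 in the Pi-replete-labelled library. Intervals and floors cover counting error only. With 1 library per condition no count model could be fitted. Of all listed lengths 99.4% were multiples of 3, hence coding lengths.

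Members and lists were chosen with earlier results of these data known. Members were sorted into 7 roles by wording. Named genes were every member of a role with at most 6, otherwise the 6 largest log2 ratios with at least 50 counts, plus the 5 members with the highest RPKM, 27 in all. The remaining 8 were added after their values were seen. Of the other pathway lists, the 3 genes with the largest ratios and at least 50 counts were named, with the exception given in the text. Alternatives were median centring, equal totals over the listed genes, at least 100 counts, an FDR of at most 1e-10, both descriptions matching, leaving out members with another described function, and neighbours with 1 best hit counted once. The last was chosen after seeing the data. All 35 identifiers matched the RefSeq table, which was used for gene order only.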

Additional observations from a re-analysis of the deposited data

How the results depend on the processing

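The counts of members and their median log2 ratio depended on scaling and on the choice of members. Against 21 members higher, 14 lower, 5 at least 4-fold higher, 7 at least 4-fold lower and a median log2 ratio of 1.30 (labelled Pi-limited over labelled Pi-replete), median centring gave 5 higher, 2 and 14 at 4-fold or more, and a median of 0.20. Centring subtracts 1.10 and no listed gene lies under 2-fold, so it takes every lower gene of the table past 4-fold. The 14 members at 4-fold lower (40.0%) are therefore fixed by the scaling, as are the 41.7% lower among all listed genes. Equal totals over the listed genes gave 21 higher and 12 lower, 11 and 6 at 4-fold or more, and a median of 1.61. Members of at least 100 counts gave 14 higher and 9 lower, 2 and 3 at 4-fold or more, and a median of 1.16. An FDR of at most 1e-10 gave 10 higher and 10 lower, 2 and 5 at 4-fold or more, and a median of 0.053. Members with both descriptions matching gave 5 higher and 4 lower, 3 and 2 at 4-fold or more, and a median of 1.03. Of the 27 named log2 ratios, median centring reversed 1, RHTO_02960, to -0.073, took 24 others outside their counting intervals and left 2 within. Equal totals reversed none, took 7 outside and left 20 within. Leaving out members with another described function, or counting neighbours with 1 best hit once, kept all 5 values within 1.5 times or 0.1 (log2). No paired analysis was possible because each condition has 1 library. Depth limits the 8 members with fewer than 50 counts in either library, and the condition cannot be told apart from the single culture and library behind it.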

Other observations

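The list chosen for wall modification and integrity signalling matched 5 genes, 4 higher and 1 lower in the Pi-limited-labelled library, and most matched by wording alone. RHTO_07272, described by KEGG as endoxylanase, cellobiosidase and endoglucanase, is the gene left out of the members for its proteophosphoglycan best hit. It had 1150 counts in the Pi-limited-labelled library and 440 in the Pi-replete-labelled library, 2.50-fold higher (95% counting interval 2.24 to 2.80). RHTO_07956, which matched lectin through its best hit plectin, had 76 counts in the Pi-limited-labelled library and 10 in the Pi-replete-labelled library, 7.28-fold higher (3.75 to 15.8). The other 3 are protein kinases with long KEGG entries, and the largest of them by ratio that has at least 50 counts, RHTO_07490, is described as a cyclin-dependent kinase and was 2.33-fold higher (1.84 to 2.97).

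The descriptions behind the members are uneven. Of the 35 members, 9 matched in both KEGG and BLAST text and 26 in 1 text, and 10 have no KEGG description. For 22 members the best hit is a Rhodotorula protein. A gene ontology function is deposited for 9 members (25.7%), against 14.3% of all listed genes, a component for 1 and a process for 0.

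Sorted into 7 roles by the wording of the description alone, the members higher and lower in the Pi-limited-labelled library were 2 and 2 for chitin, 1 and 1 for beta-glucan, 2 and 0 for GPI, 4 and 2 for mannosyl transfer, 4 and 3 for glycosidases, 0 and 1 for storage carbohydrate, and 8 and 5 for other glycosyltransferases and the cell wall. The wording places glucosidase I with mannosyl transfer and phosphatidylinositol glycan class A with the other glycosyltransferases.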
